A study of Mus musculus with 16 samples.

Results

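Chemokine transcripts of duodenal group 2 innate lymphoid cells (ILC2) were followed over 4 genotypes. The 8 genes, Cxcl10, Cxcl2, Ccl1, Ccl5, Ccl3, Ccl4, Ccl22 and Xcl1, were chosen by name, as 8 of 53465 genes in the deposited count table. The choice was made with earlier results of these data known. RNA was sequenced from 16 libraries, 4 per genotype, made from ILC2 sorted from the small intestine of untreated C57BL/6 mice aged 6 to 10 weeks. The St2 KO mice were St2 (-/-) with Arg1 Yarg/Yarg, the Il25 KO mice were Il25 (-/-) with Arg1 Yarg/Yarg, the Alox5 KO mice were Alox5 (-/-), and the WT mice were labelled wild type B6. All 4 genotypes, WT included, also carried Il13 smart13/smart13, so every mouse had a reporter allele at the gene of the main ILC2 cytokine. The Yarg reporter at Arg1 was present in the St2 KO and Il25 KO mice and not in the Alox5 KO or WT mice, so in a comparison of either with WT the knockout and the reporter cannot be told apart. Whether the 4 libraries of a genotype are separate mice is not stated, so the tests rest on library-to-library spread, which may be technical.

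Chemokines are small secreted proteins that direct leukocyte movement by binding G protein-coupled receptors on the responding cell. Their genes are mostly inducible, and transcription factors of the NF-kappaB, AP-1, NFAT and interferon regulatory families are known to act on many of them. ILC2 are best known for the type 2 cytokines IL-5 and IL-13 and respond to IL-33, which binds ST2 (encoded by Il1rl1), to IL-25 from tuft cells, and to leukotrienes, whose synthesis starts with the 5-lipoxygenase encoded by Alox5. The comparisons address which chemokine transcripts of unchallenged ILC2 differ when one of these signals is missing.

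Per length, Cxcl10 had the highest level of the 8, and both differences that passed the test between a pair of genotypes were between St2 KO and Il25 KO. Cxcl10 and Ccl1 fell in St2 KO relative to Il25 KO, by log2 fold changes of -1.07 ± 0.197 (SE) and -2.54 ± 0.527 (edgeR quasi-likelihood test, Benjamini-Hochberg adjusted p = 0.006645 and 0.02075). Their ranges also lay below WT, but that comparison did not pass over all genes. For Cxcl10 the fitted log2 fold changes against WT were -0.50 ± 0.240 in St2 KO and 0.57 ± 0.231 in Il25 KO (SE). Neither passed, and the called Cxcl10 difference spans fitted values on both sides of WT. For Ccl1 the same values were -2.84 ± 0.626 and -0.30 ± 0.505, and neither passed. Ccl3 had 0 counts in all 4 St2 KO libraries and 2 counts in the 4 Il25 KO libraries together, against 122 counts in WT, most of them in 1 library. Cxcl2 and Ccl5 passed in no comparison. Ccl4, Ccl22 and Xcl1 were too low to judge: the expression filter removed all 3, and Ccl22 had 0 counts in every library.

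The depth was 2086864 to 3216937 counts per library, with 15490 to 16529 genes detected, and levels are given as CPM, a gene's count divided by that total and multiplied by 1000000. The sample codes begin with 1 of 3 letter pairs. Replicates 1 and 2 of every genotype had TS, replicates 3 and 4 of St2 KO and Il25 KO had TY, and replicates 3 and 4 of Alox5 KO and WT had TT. What the letters stand for is not given in the sources used here. In TY, transcripts of Xist were abundant and those of the Y-linked Ddx3y were near 0, and the other 12 libraries showed the opposite, so TY reads as female. Alox5 averaged 9.84 ± 3.39 CPM in Alox5 KO against 96.2 ± 32.8 CPM in WT (SD, n = 4 each). Il1rl1 averaged 172.9 ± 37.6 CPM in the libraries labelled St2 KO against 215.5 ± 34.7 CPM in WT (SD, n = 4 each; adjusted p = 0.8899 in edgeR), so whole-gene counts cannot check the St2 KO label, and Il25 was at 0 counts in all 16 libraries, which checks nothing. All 18 ILC2 markers listed, among them Gata3, Il7r and Klrg1, were detected and tested. They summed to 7384 to 8399 CPM in St2 KO, 8331 to 8927 CPM in Il25 KO, 8297 to 9821 CPM in Alox5 KO and 8467 to 8746 CPM in WT, so the St2 KO range lay below that of WT. In St2 KO, 14 of the 18 had a fold change below 0 against Il25 KO and 15 against WT, with medians of -0.11 and -0.15 on the log2 scale. Over all tested genes 48% and 48.2% lay below 0. EdgeR called 0 of the 18 in either comparison. At an unadjusted p under 0.05 it gave 7 and 5 of the 18, beside 11.3% and 7.49% of all tested genes. The part of this shift in the chemokine results was not tested.

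The upstream sequences of Cxcl10 and Ccl1 are shown because both fell in St2 KO relative to Il25 KO, and that of Cxcl2 because it did not pass the test there. Each is the 250 bases before the gene's start in RefSeq (build GRCm38.p6), written 5′ to 3′ along the gene's own strand, and capitals mark matches to any of the 4 motifs searched on both strands. The windows are chr5:92348890-92349139 (minus strand) for Cxcl10, chr11:82179813-82180062 (minus strand) for Ccl1 and chr5:90903649-90903898 (plus strand) for Cxcl2.
Cxcl10: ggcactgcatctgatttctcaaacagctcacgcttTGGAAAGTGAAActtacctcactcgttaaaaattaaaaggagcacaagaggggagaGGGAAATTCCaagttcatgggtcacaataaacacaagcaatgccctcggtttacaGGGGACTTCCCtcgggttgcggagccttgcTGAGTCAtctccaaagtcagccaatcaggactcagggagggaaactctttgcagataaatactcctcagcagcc
Ccl1: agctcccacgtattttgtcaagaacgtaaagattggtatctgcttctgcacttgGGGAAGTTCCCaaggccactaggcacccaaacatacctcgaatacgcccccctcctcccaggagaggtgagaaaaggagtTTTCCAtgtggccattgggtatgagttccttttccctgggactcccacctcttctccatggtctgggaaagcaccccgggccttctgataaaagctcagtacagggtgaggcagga
Cxcl2: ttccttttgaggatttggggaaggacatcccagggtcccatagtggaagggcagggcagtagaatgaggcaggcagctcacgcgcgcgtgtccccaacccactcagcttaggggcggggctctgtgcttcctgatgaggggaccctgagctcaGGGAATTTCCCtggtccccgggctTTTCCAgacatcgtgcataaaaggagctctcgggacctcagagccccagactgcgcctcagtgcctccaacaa
The motifs were kappaB (searched by its name's consensus), AP-1 as TGANTCA, the interferon response element as GAAA, any 2 bases and GAAA, and NFAT as TGGAAA. Counting back from the start, the Cxcl10 window held kappaB matches at -159 to -150 and, overlapping each other, at -104 to -95 and -103 to -94. It also held an AP-1 match at -74 to -68, and an interferon response element at -213 to -204 that overlapped an NFAT match at -215 to -210. The Ccl1 window held a pair of overlapping kappaB matches at -196 to -187 and -195 to -186, with an NFAT match at -116 to -111. The Cxcl2 window held overlapping kappaB matches at -97 to -88 and -96 to -87 and an NFAT match at -73 to -68. Of 32851 promoter windows of the same length in the table, 7.25% held the kappaB motif, 6.75% AP-1, 2.98% the interferon response element and 18.6% NFAT. The Ccl3, Ccl22 and Xcl1 windows held none of these letters, which says nothing about the factors themselves. RefSeq windows matched 6 of the 8 chemokines; Ccl4 and Ccl5 are named only.

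Cxcl10 (ENSMUSG00000034855, GRCm38 chromosome 5, 92346638 to 92348889, minus strand) encodes an interferon-inducible ligand of CXCR3, a receptor of activated T and NK cells. St2 KO libraries held 86.3, 96.1, 76.3 and 37.5 CPM in replicates 1 to 4. Il25 KO libraries held 130.8, 164.0, 179.6 and 126.8 CPM. Alox5 KO libraries held 135.8, 171.2, 203.5 and 253.0 CPM, and WT libraries 123.6, 100.6, 183.3 and 157.3 CPM. All 4 St2 KO libraries lay below each of the 12 others, while the Il25 KO, Alox5 KO and WT ranges overlapped one another. The share of all tested genes with St2 KO below all 12 others was not counted, and those 12 span all 3 sample-code sets. The means were 74.1 ± 25.7 CPM in St2 KO, 150.3 ± 25.7 CPM in Il25 KO, 190.9 ± 49.8 CPM in Alox5 KO and 141.2 ± 36.4 CPM in WT (SD, n = 4 each). The St2 KO mean was 2.03-fold lower than that of Il25 KO and 1.91-fold lower than that of WT. The ratio to WT mixes sample-code sets, since St2 KO and WT share only set TS. With the set as a term the log2 fold change against WT was -0.50 ± 0.240 (SE), and within set TS it was -0.32 ± 0.270. The gene overlaps Art3 on the opposite strand, which drew 0 to 10 counts per library, whereas Cxcl10 had 109 to 528, and the library kit does not mark strand.

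Cxcl2 (ENSMUSG00000058427, chromosome 5, 90903871 to 90905938, plus strand) encodes a ligand of CXCR2 that draws neutrophils. Levels in St2 KO were 28.3, 4.66, 32.1 and 25.8 CPM. Levels in Il25 KO were 30.6, 99.8, 98.2 and 33.8 CPM. Levels in Alox5 KO were 31.5, 140.3, 74.6 and 62.3 CPM, against 20.1, 45.5, 73.0 and 90.3 CPM in WT. The ranges overlapped in all 4 comparisons, with St2 KO replicate 2 the lowest library and Alox5 KO replicate 2 the highest. Means were 22.7 ± 12.3 CPM in St2 KO, 65.6 ± 38.6 CPM in Il25 KO, 77.1 ± 45.8 CPM in Alox5 KO and 57.2 ± 30.9 CPM in WT (SD, n = 4 each). Within a genotype the libraries varied with a coefficient of variation of 54.0% to 59.4%, where counting error alone gives 7.25% to 12.4%.

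Ccl1 (ENSMUSG00000020702, chromosome 11, 82176657 to 82305690, minus strand) encodes a ligand of CCR8, a receptor carried by type 2 and regulatory lymphocytes. St2 KO libraries had 4.72, 10.3, 10.6 and 17.9 CPM. Il25 KO libraries had 37.5, 69.7, 107.5 and 33.4 CPM. Alox5 KO libraries had 68.5, 34.0, 15.1 and 66.6 CPM, and WT libraries 57.9, 79.8, 53.8 and 20.4 CPM. The St2 KO range lay wholly below the Il25 KO and WT ranges and overlapped that of Alox5 KO through its replicate 3. Means were 10.9 ± 5.40 CPM in St2 KO, 62.0 ± 34.4 CPM in Il25 KO, 46.0 ± 26.0 CPM in Alox5 KO and 53.0 ± 24.5 CPM in WT (SD, n = 4 each), so St2 KO was 5.71-fold lower than Il25 KO and 4.88-fold lower than WT. St2 KO rested on 14 to 52 counts per library, where the WT libraries had 50 to 207. The span in the annotation used here reaches far upstream of the RefSeq start, and the annotation the authors counted with is not given in the sources used here.

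Ccl5 (ENSMUSG00000035042, chromosome 11, 83525778 to 83530518, minus strand), also known as RANTES, is a chemokine made by T cells and NK cells. It had 35.4, 9.64, 22.6 and 14.8 CPM in St2 KO and 10.8, 6.60, 32.2 and 25.1 CPM in Il25 KO. Its levels were 28.3, 27.8, 11.9 and 8.63 CPM in Alox5 KO and 42.1, 39.7, 24.8 and 11.4 CPM in WT. All 4 ranges overlapped, and in Alox5 KO and WT replicates 1 and 2, which form set TS, were the higher ones. Means were 20.6 ± 11.2 CPM in St2 KO, 18.7 ± 11.997 CPM in Il25 KO, 19.2 ± 10.4 CPM in Alox5 KO and 29.5 ± 14.3 CPM in WT (SD, n = 4 each).

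**Figure D1:**
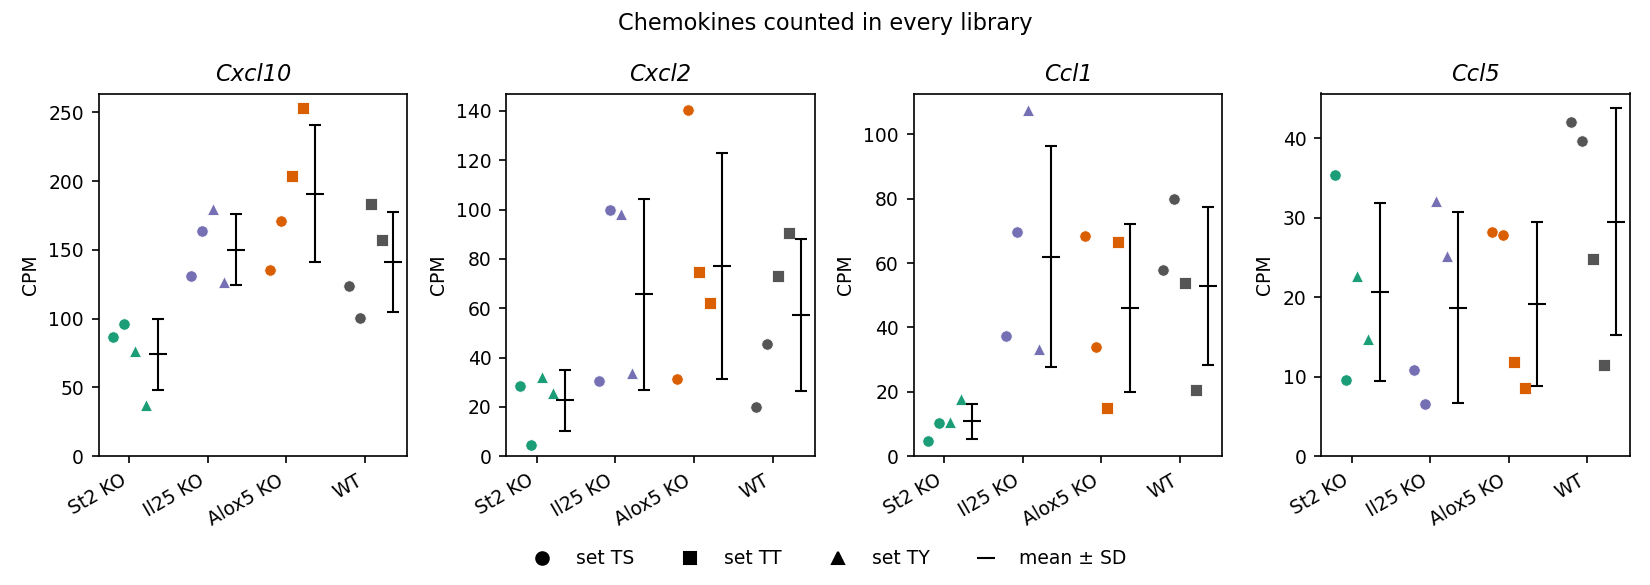
CPM (linear axis) of Cxcl10, Cxcl2, Ccl1 and Ccl5 in each library by genotype, with point shape giving the sample-code set and bars the mean ± SD of 4 libraries. The 4 St2 KO points of Cxcl10 (37.5 to 96.1 CPM) lie below all others, those of Ccl1 (4.72 to 17.9 CPM) lie below Il25 KO and WT, and the Cxcl2 and Ccl5 points overlap between genotypes.

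Ccl3 and Ccl4 encode MIP-1alpha and MIP-1beta, a pair of inflammatory chemokines, from neighbouring genes whose starts lie 14.74 kb apart on chromosome 11 (83647844 to 83649355, minus strand, and 83662584 to 83664683, plus strand). Ccl3 (ENSMUSG00000000982) had 0 counts in every St2 KO library. It had 2, 0, 0 and 0 counts in Il25 KO, and 33, 27, 0 and 0 counts in Alox5 KO, against 2, 100, 18 and 2 counts in WT. WT was the only genotype with a count in all 4 libraries, and WT replicate 2 held 100 of the 122 WT counts. Scaled to depth and with a floor of 3 counts over the group, Ccl3 was at least 46.8-fold lower in St2 KO than in WT, and at least 11.3-fold lower without WT replicate 2. Il25 KO was 63.7-fold lower than WT with an exact 95% counting interval of 17.3 to 531.8, and 15.4-fold lower (3.77 to 134.7) without that library. These bounds and intervals cover counting error only, and the spread between libraries was larger: 9 of 16 libraries had 0 counts. Between St2 KO and Il25 KO no fold is given, because both were at or under the floor.

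Ccl4 (ENSMUSG00000018930) had 17, 0, 0 and 13 counts in St2 KO, 1, 1, 0 and 0 in Il25 KO, 0, 0, 0 and 1 in Alox5 KO and 0, 0, 3 and 0 in WT. Its counts therefore lay mostly in 2 St2 KO libraries, one in set TS and one in set TY. Ccl3 reached 10 counts in 4 libraries and Ccl4 in 2, and no library reached 10 for both. Xcl1 (ENSMUSG00000026573, chromosome 1, 164931644 to 164935527, minus strand) encodes lymphotactin, the ligand of XCR1 on cross-presenting dendritic cells. It had 4, 0, 0 and 0 counts in St2 KO, 0, 0, 9 and 3 in Il25 KO, 15, 0, 1 and 0 in Alox5 KO and 2, 1, 4 and 2 in WT. Xcl1 was at 0 in 7 libraries, and it overlaps Gm20743 on the opposite strand. Ccl22 (ENSMUSG00000031779, chromosome 8, 94745590 to 94751699, plus strand), a ligand of CCR4, was at 0 in all 16 libraries, where 3 counts over a genotype would correspond to 0.254 CPM in St2 KO, 0.279 CPM in Il25 KO, 0.309 CPM in Alox5 KO and 0.292 CPM in WT. The filter removed Ccl4, Xcl1 and Ccl22, so their differences between genotypes were not tested. Ccl4 held 30 counts over the St2 KO libraries, against 2 in Il25 KO, 1 in Alox5 KO and 3 in WT. Its ranges overlapped in all 4 comparisons, since 2 St2 KO libraries were at 0.

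**Figure D2:**
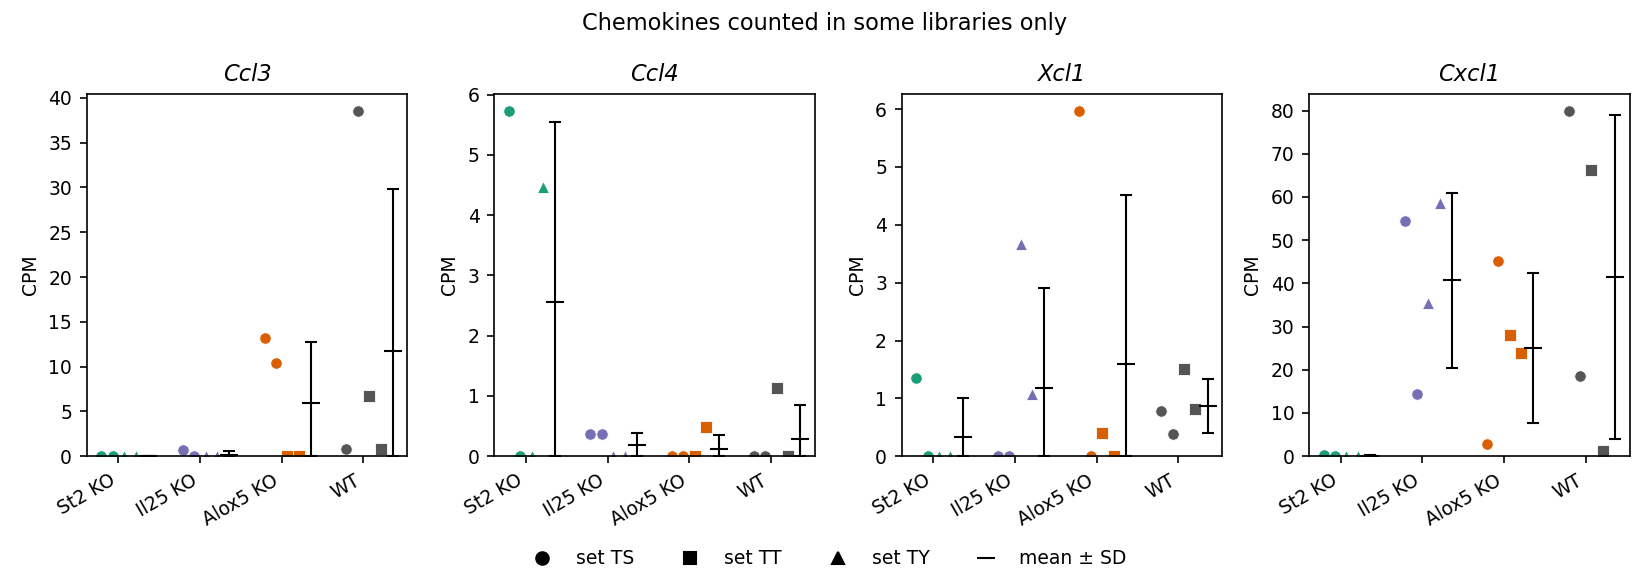
CPM (linear axis) of Ccl3, Ccl4, Xcl1 and the further chemokine Cxcl1 in each library by genotype, with point shape giving the sample-code set and bars the mean ± SD of 4 libraries (bars end at 0). Ccl3 is at 0 in all 4 St2 KO libraries and at 38.6 CPM in WT replicate 2, and Cxcl1 is at 0.337 CPM or below in St2 KO.

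Between genes, levels can be compared only per length. As CPM per kilobase of all annotated exons (RPKM, mean over 16 libraries), the order was Cxcl10 at 61.8, Cxcl2 at 26.9, Ccl5 at 22.9, Ccl1 at 18.1, Ccl3 at 5.81, Xcl1 at 1.91 and Ccl4 at 1.19. Per length of the principal transcript the RPKM values were 127.2 for Cxcl10, 83.6 for Ccl1, 50.2 for Cxcl2 and 41.3 for Ccl5. Cxcl10 led under both lengths, whereas the place of Ccl1 depended on the length, since its annotated exons cover 2369 bases and its principal transcript 514. Over all annotated exons Cxcl10 also led within each genotype, but the order of the next 3 mean levels differed between genotypes, which was not tested. In St2 KO the mean RPKM was 21.5 for Ccl5, 10.99 for Cxcl2 and 4.59 for Ccl1, and in Il25 KO it was 31.7 for Cxcl2, 26.2 for Ccl1 and 19.5 for Ccl5. In Alox5 KO it was 37.3 for Cxcl2, 19.95 for Ccl5 and 19.4 for Ccl1, and in WT 30.8 for Ccl5, 27.7 for Cxcl2 and 22.4 for Ccl1. In CPM, the 8 chemokines together summed to 100.5 to 161.9 in St2 KO, 210.8 to 421.1 in Il25 KO, 283.1 to 391.0 in Alox5 KO and 245.3 to 344.4 in WT. The St2 KO sums lay below those of the 12 other libraries, and Cxcl10 supplied 33.0% to 79.6% of the sum across libraries.

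The tests used 5 of the 8 chemokines, since Ccl4, Ccl22 and Xcl1 did not pass the filter on low counts. The log2 fold changes below come from 1 edgeR quasi-likelihood fit of all 16 libraries with genotype and sample-code set as terms, with p-values adjusted by the Benjamini-Hochberg method over 11742 genes. Because of the set term they can differ from the ratios of mean CPM. In bulk libraries such as these, fewer cells of a type and less RNA per cell cannot be told apart.

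Over the 4 genotypes together, Cxcl10 (adjusted p = 0.01764) and Ccl1 (adjusted p = 0.04918) passed the edgeR test of any difference, so 2 of 5 tested chemokines were called, where 1.17% of all tested genes were. Ccl3, Ccl5 and Cxcl2 had adjusted p-values of 0.1191, 0.3394 and 0.4933. The Ccl1 call lay close to the threshold and was lost under 14 of 25 other settings.

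In St2 KO against Il25 KO, which share the Arg1 and Il13 alleles and both sample-code sets, 2 of 5 tested chemokines were called, both lower. Over all genes 1.24% were called in this comparison and 0.852% were called lower. Cxcl10 fell by 1.07 ± 0.197 (SE) on the log2 scale (adjusted p = 0.006645), lower in 4 of 4 St2 KO libraries than in any Il25 KO library. Ccl1 fell by 2.54 ± 0.527 (adjusted p = 0.02075), also without overlap between the 4 St2 KO and 4 Il25 KO libraries. Non-overlapping ranges with the St2 KO side lower were found for 2.62% of tested genes. Cxcl2 had a log2 fold change of -1.59 ± 0.644 and did not pass (adjusted p = 0.3575), and Ccl5 had one of 0.14 ± 0.409 (adjusted p = 0.9455). Over the 4 chemokines counted in every library, which leaves out Ccl3, the median log2 fold change was -1.33, beside 0.01 over all tested genes, and 3 of the 4 were below 0, as were 48% of all genes. The Ccl1 call was lost without any 1 of 6 libraries, namely Il25 KO replicates 2 and 3 and each St2 KO library, with adjusted p-values of 0.06795, 0.102, 0.06687, 0.07658, 0.06445 and 0.05197.

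Genes of tissue dissociation and of the immediate early response moved with these calls. The summed level of the 12 listed genes, among them Fos, Fosb, Egr1 and Zfp36, was 3223 to 3688 CPM in St2 KO, 5213 to 6371 CPM in Il25 KO, 4936 to 5517 CPM in Alox5 KO and 4723 to 5331 CPM in WT. None of the 12 was at 0 in all libraries. In St2 KO against Il25 KO, 9 of the 12 were called lower, where 0.852% of all tested genes were, with a median log2 fold change of -0.75. Against WT, 3 of the 12 were called lower in St2 KO, where 0.298% of all genes were called in either direction, with a median of -0.57. In each of these comparisons 10 of the 12 had a fold change below 0. Not all fell: Hspa1a and Hspa1b averaged 13.9 and 34.5 CPM in St2 KO, against 5.20 and 31.9 CPM in Il25 KO. Zfp36, which encodes an RNA-binding protein that promotes decay of cytokine and chemokine messengers, averaged 101.7 CPM in St2 KO, 526.6 CPM in Il25 KO, 489.7 CPM in Alox5 KO and 515.2 CPM in WT. The part of these genes, and of cell handling, in the chemokine results was not tested.

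In St2 KO against WT, 0 of 5 tested chemokines were called, where 0.298% of all genes were, and 7.49% of genes had an unadjusted p under 0.05. At that unadjusted threshold edgeR gave Ccl1 and Ccl5, 2 of the 4 chemokines counted in every library. It also gave Ccl3, which passed the filter only through the WT and Alox5 KO libraries where it was high and is not counted here. The log2 fold changes were -2.84 ± 0.626 for Ccl1 (adjusted p = 0.07499), -1.35 ± 0.450 for Ccl5 (adjusted p = 0.4192), -1.28 ± 0.813 for Cxcl2 (adjusted p = 0.7797) and -0.50 ± 0.240 for Cxcl10 (adjusted p = 0.6632). All 4 of these values lay below 0, as did 48.2% of all genes, and their median was -1.31, beside 0.01 over all genes. The ranges of Cxcl10 and Ccl1 did not overlap, with St2 KO lower both times, as for 4.84% of tested genes. Those of Ccl3 did not overlap either, but WT replicates 1 and 4 had only 2 counts each, against 0 in St2 KO. Ccl1 passed with DESeq2 (log2 fold change -2.93, adjusted p = 0.0001218). Only set TS holds libraries of both St2 KO and WT, and outside it genotype, set and sex cannot be told apart.

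In Il25 KO against WT, 0 of 5 tested chemokines were called, where 0.417% of all genes were, and 9.3% of genes had an unadjusted p under 0.05. Ccl5 had a log2 fold change of -1.48 ± 0.472 (adjusted p = 0.2629), Cxcl10 of 0.57 ± 0.231 (adjusted p = 0.4331), Ccl1 of -0.30 ± 0.505 (adjusted p = 0.9257) and Cxcl2 of 0.32 ± 0.715 (adjusted p = 0.9518). Ccl3 had an adjusted p of 0.2105 in edgeR. Its CPM range in Il25 KO lay below that in WT, as for 4.23% of tested genes, but only through depth. Il25 KO replicate 1 and WT replicates 1 and 4 each had 2 counts. At an unadjusted p under 0.05 edgeR gave Ccl5 and Cxcl10, and Ccl3 with the same limit as above, and DESeq2 called 0. The Cxcl10 means of 150.3 CPM in Il25 KO and 141.2 CPM in WT stood close to each other, and the fitted value takes the set term into account.

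In Alox5 KO against WT, 0 of 5 tested chemokines were called, where 0.102% of all genes were. Cxcl10 had a log2 fold change of 0.45 ± 0.182 (unadjusted p = 0.02386, adjusted p = 0.6307 in edgeR) and was the only chemokine at an unadjusted p under 0.05, as were 7.17% of all genes, and DESeq2 called 0 of the 5. The values were 0.50 ± 0.547 for Cxcl2, -0.23 ± 0.427 for Ccl1, -0.62 ± 0.395 for Ccl5 and -0.99 ± 0.761 for Ccl3, with adjusted p-values of 0.8674, 0.9212, 0.7641 and 0.804. Values that miss the threshold do not show that the 2 genotypes are alike.

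**Figure D3:**
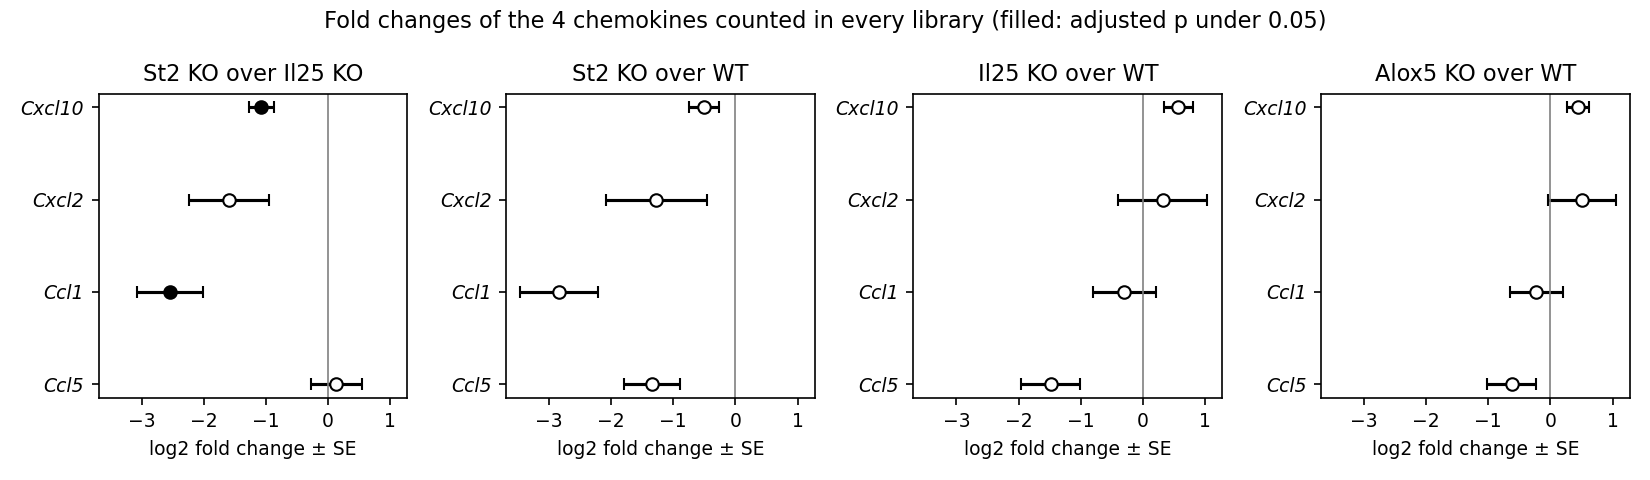
Log2 fold change ± SE of Cxcl10, Cxcl2, Ccl1 and Ccl5 in the 4 comparisons from the edgeR fit, with filled points where the adjusted p was under 0.05. Filled points appear only in St2 KO over Il25 KO, for Cxcl10 (-1.07) and Ccl1 (-2.54).

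Within the sample-code sets, St2 KO lay below Il25 KO for both called genes in each set. The ranges of all St2 KO and Il25 KO libraries did not overlap for these genes. The direction within each set was therefore fixed in advance and adds no support to the calls. The Cxcl10 log2 fold change was -0.74 ± 0.258 in set TS (edgeR adjusted p = 0.3557) and -1.47 ± 0.283 in set TY (adjusted p = 0.03185). The Ccl1 values were -2.86 ± 0.887 in set TS (adjusted p = 0.2858) and -2.30 ± 0.761 in set TY (adjusted p = 0.3881). Cxcl2 gave -2.07 ± 0.952 in TS and -1.20 ± 0.871 in TY. Ccl5 gave 1.29 ± 0.599 in TS and -0.65 ± 0.489 in TY, values of opposite sign. The difference between sets was tested directly as an interaction and passed for 0 genes, chemokines included, with 4.87% of genes at an unadjusted p under 0.05. For Ccl5 the interaction was -1.94 ± 0.775 (unadjusted p = 0.02374, adjusted p = 0.9947 in edgeR).

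Against WT, set TS alone gave Ccl1 values of -3.19 ± 0.851 for St2 KO and -0.33 ± 0.589 for Il25 KO, and Cxcl10 values of -0.32 ± 0.270 and 0.42 ± 0.257 in the same order. Ccl5 in set TS was -2.19 ± 0.541 for Il25 KO against WT (adjusted p = 0.2378). For Alox5 KO against WT, Cxcl10 was 0.46 ± 0.258 in set TS and 0.44 ± 0.236 in set TT, whereas Cxcl2 was 1.40 ± 0.823 in TS and -0.22 ± 0.740 in TT. The interaction of that comparison also passed for 0 genes, with 4.04% at an unadjusted p under 0.05.

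**Figure D4:**
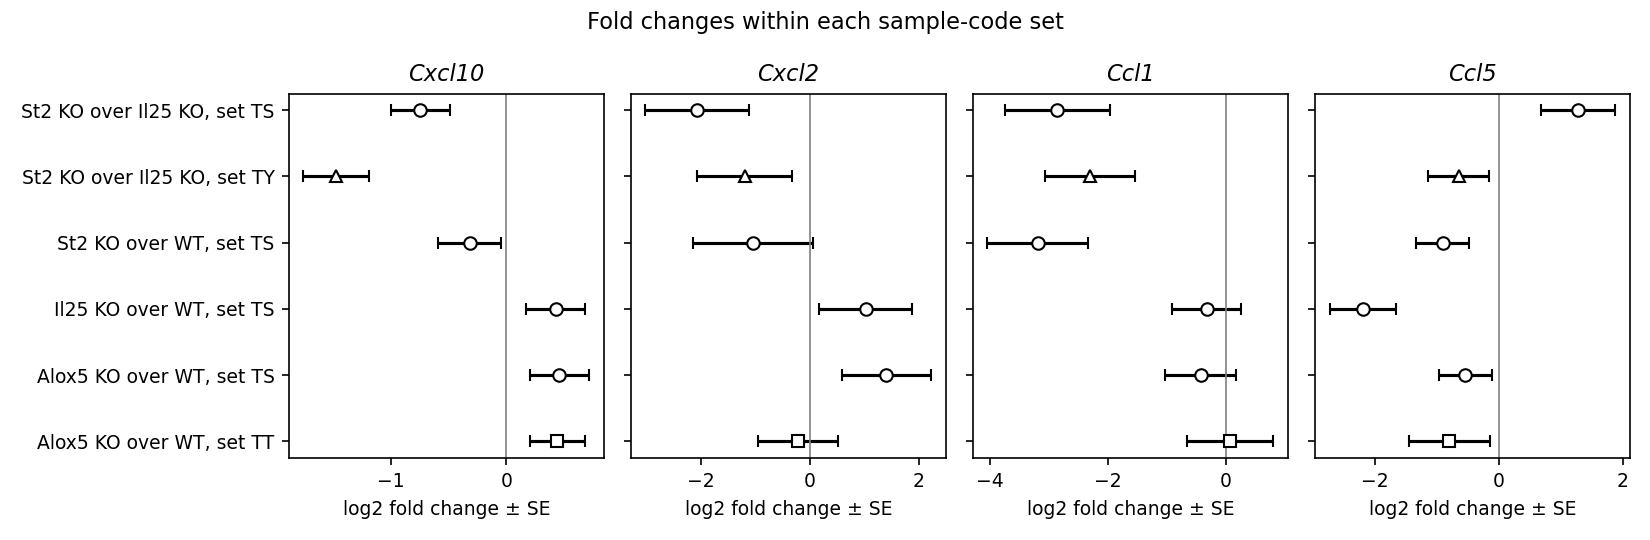
Log2 fold change ± SE of Cxcl10, Cxcl2, Ccl1 and Ccl5 within each sample-code set, from a fit with 1 mean per genotype and set (2 libraries each). Cxcl10 and Ccl1 lie below 0 in both sets of St2 KO over Il25 KO, a direction that their non-overlapping ranges fix in advance. Ccl5 lies at 1.29 in set TS and -0.65 in set TY.

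Of 30 other chemokine ligands, 9 had 0 counts in every library, 12 had a mean under 1 CPM, 7 had a mean from 1 to 10 CPM, and 2, Cxcl1 and Ccl25, had more. Of the 30, 5 were tested and edgeR called 0 in any of the 4 comparisons. At most 2 of the 5 had an unadjusted p under 0.05 in each, beside 7.17% to 11.3% of all genes. Their median log2 fold change was -0.18 in St2 KO against Il25 KO and 0.44 in St2 KO against WT, beside 0.01 over all genes in both. Cxcl1 (ENSMUSG00000029380, chromosome 5, 90891241 to 90893115), a CXCR2 ligand whose gene neighbours Cxcl2, had 0.337, 0, 0 and 0 CPM in St2 KO and 54.4, 14.3, 35.4 and 58.6 CPM in Il25 KO. It had 2.79, 45.2, 28.2 and 24.0 CPM in Alox5 KO, against 80.0, 18.5, 66.2 and 1.23 CPM in WT. St2 KO held 1 count over its 4 libraries and lay below every library of the other genotypes, where Il25 KO held 440, Alox5 KO 245 and WT 434 counts. How many tested genes lay so was not counted. The depth-scaled sum was 484.5-fold lower in St2 KO than in Il25 KO (exact 95% counting interval 86.5 to 19180) and 499.0-fold lower than in WT (89.1 to 19752.5). These intervals cover counting error only, and Cxcl1 passed the filter only through the other genotypes, where it was high. Within those genotypes the coefficient of variation was 49.8% to 90.6%, where counting error alone gives 9.53% to 12.8%. Neither difference passed over all genes in edgeR (adjusted p = 0.116 and 0.2805), and the libraries of the other genotypes ranged from 3 to 207 counts. Ccl25, which encodes the small-intestinal ligand of CCR9, averaged 37.0 CPM in St2 KO, 41.4 CPM in Il25 KO, 34.7 CPM in Alox5 KO and 36.1 CPM in WT. It overlaps Elavl1 on the opposite strand, which had 278.5 to 375.6 CPM, so reads from the overlap cannot be told apart.

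Of the 12 listed receptors of these chemokines, Cxcr1, Cxcr2, Ackr1 and Ackr2 were at 0 in all libraries, 5 were tested and edgeR called 0 in any comparison. At most 1 of the 5, Ccr4 in Il25 KO against WT, had an unadjusted p under 0.05, as did 9.3% of all genes there. Their median log2 fold change was 0.12 in St2 KO against Il25 KO. Ccr8, the receptor of Ccl1, averaged 352.4 ± 33.8 CPM in St2 KO, 369.4 ± 17.2 CPM in Il25 KO, 405.3 ± 37.2 CPM in Alox5 KO and 366.7 ± 42.7 CPM in WT (SD, n = 4 each). Ccr4, a receptor of Ccl22, averaged 215.4 ± 66.1 CPM in St2 KO, 191.3 ± 55.4 CPM in Il25 KO, 272.9 ± 66.1 CPM in Alox5 KO and 346.2 ± 73.9 CPM in WT. So both receptors were counted in every library, while Ccl22, one of the ligands of Ccr4, was at 0. Cxcr3, the receptor of Cxcl10, averaged 24.2 CPM in St2 KO, 16.04 CPM in Il25 KO, 12.2 CPM in Alox5 KO and 17.0 CPM in WT. Xcr1, the receptor of Xcl1, averaged 14.1 CPM in St2 KO, 24.4 CPM in Il25 KO, 15.7 CPM in Alox5 KO and 22.8 CPM in WT.

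Markers of other cells that make these chemokines were read beside them. The 14 macrophage and dendritic markers summed to 2.49 to 18.2 CPM in St2 KO, 13.7 to 93.3 CPM in Il25 KO, 3.98 to 25.1 CPM in Alox5 KO and 7.90 to 25.9 CPM in WT, with Fcgr1 at 0 in all libraries. Much of this was Zbtb46, which averaged 5.09 CPM in St2 KO, 36.3 CPM in Il25 KO, 9.34 CPM in Alox5 KO and 9.70 CPM in WT. The next highest mean in Il25 KO was 6.44 CPM, for Cd68. The 10 granulocyte and mast cell markers summed to at most 27.7 CPM in any library, and 6 of them, S100a8, S100a9, Epx, Mcpt1, Mcpt2 and Ms4a2, were at 0 throughout. The 15 markers of T cells, NK cells and ILC1 summed to 924.5 to 1086 CPM in St2 KO, 926.5 to 1232 CPM in Il25 KO, 1136 to 1442 CPM in Alox5 KO and 1188 to 1227 CPM in WT, with Cd8b1 at 0. Within that list the median over all libraries was 518.7 CPM for Gzma, 369.8 CPM for Nkg7, 109.1 CPM for Prf1 and 98.8 CPM for Cd3g. It was 25.0 CPM for Ncr1, 18.3 CPM for Cd3e, 11.4 CPM for Tbx21 and 7.80 CPM for Gzmb. It was 6.06 CPM for Cd3d, 5.98 CPM for Ifng, 0.938 CPM for Klrb1c and 0 for Cd4, Cd8a and Eomes. The 5 ILC3 markers summed to at most 83.3 CPM, the 9 epithelial markers to at most 207.9 CPM, in an Il25 KO library, and the 9 stromal markers to at most 3.98 CPM, with Dclk1 and Cdh5 at 0. The 10 B and plasma cell markers summed to 641.4 to 1985 CPM in St2 KO, 1868 to 2613 CPM in Il25 KO, 629.4 to 2663 CPM in Alox5 KO and 2246 to 2565 CPM in WT, with none at 0, and St2 KO replicate 1 and Alox5 KO replicates 1 and 2 were the low libraries. Without those 3 libraries Cxcl10 still passed in St2 KO against Il25 KO and Ccl1 did not (adjusted p = 0.1121), though its log2 fold change there was -2.35, beside -2.54 with all libraries. The part of other cell types in the chemokine results was not tested.

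The genes whose log2 CPM followed each chemokine most closely over the 16 libraries were found among 9094 candidates, as a description only, since the libraries share genotype, set and depth. Cxcl10 was followed most closely by Mir142hg (Pearson r = 0.873), Ptgs2 (r = 0.864) and Dusp16 (r = 0.862). Ccl1 was followed by Gstp1 (r = 0.886), Med11 (r = 0.856) and Map3k8 (r = 0.847). In St2 KO against Il25 KO the log2 fold changes of these 6 genes were -0.39 for Mir142hg (edgeR adjusted p = 0.4483), -4.09 for Ptgs2 (adjusted p = 0.0001667) and -1.39 for Dusp16 (adjusted p = 0.3403). They were -0.22 for Gstp1 (adjusted p = 0.464), -0.53 for Med11 (adjusted p = 0.061) and -1.85 for Map3k8 (adjusted p = 0.0001045). Ptgs2, which encodes cyclooxygenase 2, and Map3k8, which encodes a kinase of the ERK pathway, were the 2 of 6 that passed. Over all tested genes 1.24% passed. All 6 were picked for following a chemokine over these same libraries. Neither their direction in St2 KO nor the number that passed is therefore independent of the chemokine values. The closest genes were Myo9a, Gabpa and Fam110a for Cxcl2 (r = 0.816, 0.798 and 0.789), Dnajb4, Tusc2 and Hdx for Ccl5 (r = 0.836, 0.735 and 0.732), and Mterf4, Phf11b and Cdk5rap1 for Ccl3 (r = 0.790, 0.750 and 0.739). Once genotype and set means were removed, the 10 pairs among the 5 tested chemokines had r between -0.26 and 0.40 over 16 libraries, so libraries of a genotype that were high for one chemokine were not generally high for the others.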

How the data were processed

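The authors deposited 1 table of whole-number counts per gene, with no scaling. Alignment tool STAR 2.4.2a and counter HTSeq 0.4.1, the quality tools FastQC 0.11.3 and Picard 1.134, and mouse build GRCm38 are named in the submitters' processing notes; the settings, annotation and any removal of duplicates are not given in the sources used here. Per the labels' protocols, the tissue was digested with Liberase TM, enriched on Percoll and sorted, and libraries were made with Nextera XT, which does not mark strand; the sort gate is not given. Of 53471 gene entries, 6 with repeated identifiers were dropped. CPM used column totals (median 2625205.5). Gene lengths came from the GENCODE annotation of GRCm38.

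Counts were tested with edgeR 4.0.16 in R 4.3.3: TMM factors (0.960 to 1.027), the default expression filter over the 4 genotypes (11742 genes kept), robust quasi-likelihood F tests, genotype and sample-code set as terms (10 residual degrees of freedom), and Benjamini-Hochberg adjustment at 0.05. The SE is the fold change divided by the square root of F. Likeness used TMM-scaled log2 CPM (prior count 2) of genes averaging at least 3. The 8 chemokines, the named lists and the sets of libraries left out were chosen with earlier results of these data known. Named beside the 8 were tested ligands and receptors with a mean of at least 10 CPM, the targeted genes and the 3 closest genes per tested chemokine; Zfp36 and the other marker genes named singly were picked after their values were seen. The alternatives were DESeq2 1.42.0, edgeR's legacy mode, other scalings, no filter, no set term, a replicate block, set TS alone, and samples left out. The procedure was tested on simulated counts.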

Additional observations from a re-analysis of the deposited data

Results flagged for a closer look

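For the chemokines with any count, and for Cxcl1 and Ccl25, the 4 libraries of each genotype were checked for a library far from the rest by Dixon's criterion, and 7 of 35 groups met it. Chance meets it in about 1 in 20 groups only where values are normally distributed. A group with 3 libraries at 0 and 1 above 0 always meets it, and most of the 7 were of that kind. The 7 of 35 therefore cannot be set against 1 in 20. Ccl3 stood at 0.721 CPM in Il25 KO replicate 1, where the others had 0 counts, and at 38.6 CPM in WT replicate 2. Ccl4 stood at 0.479 CPM in Alox5 KO replicate 4 and at 1.129 CPM in WT replicate 3, with the other libraries of each group at 0. Xcl1 stood at 1.35 CPM in St2 KO replicate 1, with the other 3 libraries at 0, and at 5.97 CPM in Alox5 KO replicate 1. Cxcl1 stood at 0.337 CPM in St2 KO replicate 1, which is 1 count. Only the Ccl3 value in WT replicate 2 (100 counts) and the Xcl1 value in Alox5 KO replicate 1 (15 counts) rest on more than 4 counts.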

How the results depend on the processing

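The Cxcl10 fall in St2 KO against Il25 KO passed in 24 of 25 alternatives, with log2 fold changes of -1.23 to -0.74 over all of them, and was lost with set TS alone (adjusted p = 0.2749). The Ccl1 fall passed in 16 of 25 (-2.93 to -2.12). Chemokines called in that comparison numbered 2, against 1 with no filter on low counts, 0 in set TS alone, 1 without the 3 libraries with few plasma cell transcripts, and 1 to 2 with 1 library left out. For any difference they numbered 2, against 1 with no filter, 1 with no set term, 0 in set TS alone, 1 without the 3 libraries and 1 to 2 with 1 library left out. In St2 KO against WT they numbered 0, against 1 with DESeq2 (Ccl1), 1 without the 3 libraries (Ccl5, adjusted p = 0.03112) and 0 to 1 with 1 library left out; in Il25 KO against WT 0, and 0 to 1. Ccl3 passed without WT replicate 1 in Il25 KO (edgeR adjusted p = 0.003088) and St2 KO (adjusted p = 0.001595) against WT. As Ccl3 passed the filter only through the WT and Alox5 KO libraries where it was high, these passes are no support for a difference. WT replicate 2 held most of the WT counts. Ccl5 passed in both comparisons without St2 KO replicate 1 (edgeR adjusted p = 0.01321 and 0.006811). Ccl1 passed in St2 KO against WT without Il25 KO replicate 2 or 4, WT replicate 4 or Alox5 KO replicate 4 (adjusted p of 0.01138 to 0.04606). The causes were not tested.

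Genes called, in the order DESeq2, set TS alone, without the 3 libraries, and 1 library left out, were 246, 33, 90 and 80 to 168 in St2 KO against Il25 KO (146 as reported), and 299, 42, 83 and 95 to 164 for any difference (137). In St2 KO against WT they were 67 with DESeq2, 58 with no set term, 21 without the 3 libraries and 19 to 45 with 1 left out (35 as reported). In Il25 KO against WT they were 82 with DESeq2, 95 with no set term, 9 in set TS alone, 26 without the 3 libraries and 31 to 53 with 1 left out (49). In Alox5 KO against WT they were 53 with DESeq2, 5 in legacy mode, 3 in set TS alone, 3 without the 3 libraries and 6 to 20 with 1 left out (12).

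Over these alternatives, directions turned only in fold changes that had not passed. In Alox5 KO against WT, Ccl1 was 0.068 without the 3 libraries and -0.63 to 0.033 with 1 library left out (above 0 without Alox5 KO replicate 2 or 3), Cxcl2 was -0.22 and -0.19 to 0.75 (below 0 without Alox5 KO replicate 2), and Ccl3 was -1.87 to 0.74 with 1 left out (above 0 without WT replicate 2). In Il25 KO against WT, Ccl1 was 0.24 with no set term and -0.79 to 0.011 with 1 left out (above 0 without Il25 KO replicate 1), and Cxcl2 was -0.58 to 0.85 (below 0 without WT replicate 1 or Il25 KO replicate 2). In St2 KO against Il25 KO, Ccl5 was -0.48 without the 3 libraries and -0.49 to 0.44 with 1 left out (below 0 without Il25 KO replicate 1 or 2 or St2 KO replicate 1).

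Replicate numbers gave no sign of pairing the libraries: deviations of same-numbered libraries of a set had r of -0.288 to 0.0770 over 16 pairs. Differently numbered libraries of a set also had values below 0, as low as -0.242 for Il25 KO replicate 3 with St2 KO replicate 4. Removing genotype and set means by itself pushes r within a set below 0, so this check is weak. With a replicate block beside genotype and set, 2 chemokines were called in St2 KO against Il25 KO, 1 for any difference (Ccl1 adjusted p = 0.08126) and 0 in each comparison with WT, and 21 genes in Alox5 KO against WT. Ccl4 and Xcl1 had at most 17 and 15 counts in a library, so differences of a few counts could not be judged at this depth.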
